A study of Mus musculus with 8 samples.

Results

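The genes described here are the ligands, receptors, signal carriers, antagonists and direct targets of the TGF-beta and BMP pathways, measured in mouse embryonic palate cells after 60 min of ephrin-B1. Membership was set by a pattern on the gene symbol, which takes the Tgfb, Bmp, Gdf and inhibin ligands, the latent TGF-beta binding proteins, the Tgfbr, Bmpr and Acvr receptors, Smads, Smurfs, secreted antagonists, Tgfbi, Bambi and the Id genes. The pattern found 64 of the 17711 genes that had a probe, carried by 112 probes. Of these 64 genes, 43 had a probe (63 probes in all) whose detection p was under 0.05 on at least 4 of the 8 arrays, and these 43 were tested among 9396 genes and 16514 probes in all. Detection here means a signal above the negative control beads of the same array.

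The cells, named MEP, were primary cells from the palatal shelves of E13.5 embryos of strain CBA;C57BL6 N2, grown in DMEM with 10% FBS and used at passage 1. Of the 8 arrays, 4 held RNA of induced cells, which received 2 ug/ml of ephrin-B1 clustered beforehand for 60 min, and 4 held RNA of uninduced cells, described as a control induction. The labels do not say whether the uninduced cells received the clustering reagent, nor whether the 4 replicates of a group were separate cultures, so p-values measure the spread between these arrays. Ephrin-B1 is a membrane-bound ligand of Eph receptor tyrosine kinases, and its gene is known for craniofacial defects when mutated.

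TGF-beta and BMP ligands are secreted dimers that join type II and type I receptor kinases at the cell surface. TGF-betas and activins then act through Smad2 and Smad3, BMPs and many GDFs through Smad1 and its close relatives, and both branches share Smad4. In the palate, Tgfb3 is known for its role in fusion of the shelf epithelia, and Bmp4 for its part in mesenchymal growth together with the transcription factor Msx1. The Id genes, which encode dimer partners that block basic helix-loop-helix factors, are textbook direct targets of the BMP branch.

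All 4 Id genes had higher means in induced cells, without passing the test, and the upstream sequences of the 3 with an entry in the RefSeq promoter table (mouse build GRCm38.p6) are therefore shown. Each runs 5′ to 3′ on the gene's strand over the 250 bases before the annotated start. Capitals mark GGCGCC and GGAGCC, the GC-rich letters bound by the BMP Smads, and CAGAC, the Smad-binding element, each searched on both strands. No marked match overlapped another. The Id2 stretch lies at chr12:25096093-25096342 on the minus strand, that of Id3 at chr4:136143572-136143821 on the plus strand and that of Id4 at chr13:48260866-48261115 on the plus strand.
Id2: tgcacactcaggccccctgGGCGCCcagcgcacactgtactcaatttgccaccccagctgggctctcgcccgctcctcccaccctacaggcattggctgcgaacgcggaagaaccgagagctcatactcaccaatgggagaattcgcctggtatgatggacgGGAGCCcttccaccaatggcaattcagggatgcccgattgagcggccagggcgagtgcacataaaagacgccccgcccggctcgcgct
Id3: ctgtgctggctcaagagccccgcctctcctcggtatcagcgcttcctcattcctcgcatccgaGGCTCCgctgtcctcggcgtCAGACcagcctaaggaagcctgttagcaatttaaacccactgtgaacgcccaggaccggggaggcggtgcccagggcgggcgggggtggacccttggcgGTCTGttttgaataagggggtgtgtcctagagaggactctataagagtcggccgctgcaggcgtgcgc
Id4: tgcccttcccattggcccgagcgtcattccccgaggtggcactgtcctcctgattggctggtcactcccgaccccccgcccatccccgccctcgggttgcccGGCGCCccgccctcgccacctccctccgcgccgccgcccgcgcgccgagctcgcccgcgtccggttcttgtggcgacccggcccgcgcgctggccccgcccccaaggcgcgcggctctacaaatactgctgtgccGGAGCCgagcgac
The Id2 stretch held GGCGCC beginning 231 bases before the start and GGAGCC at 88 bases, with no CAGAC. The Id3 stretch held GGAGCC once, at 187 bases, and CAGAC at 167 and 68 bases, all but the match at 167 bases read on the opposite strand. The Id4 stretch held GGCGCC at 148 bases and GGAGCC at 13 bases. The E-box letters CANNTG occurred in Id2 alone among these 3, at 196 bases. Over 39 upstream stretches of the 32 tested pathway genes with an entry, GGCGCC was present in 30.8%, GGAGCC in 48.7%, CAGAC in 51.3% and CANNTG in 43.6%. Over all 32851 stretches of the same length the shares were 9.59%, 26%, 42.2% and 66.2% in the same order of motifs. These matches describe letters and no binding was measured.

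Between 15303 and 17362 of 46632 probes were above background per array. The replicate number went with the slide: replicate 1 of both groups lay on slide 1, replicate 2 on slide 2, and replicates 3 and 4 on slide 3. Differences are given as induced minus uninduced on a log2 scale after background correction and quantile normalization, and tests come from limma with Benjamini-Hochberg adjustment over all genes tested, two-sided. Of 3 fits given, 1 has no block, 1 takes the slide as a block and 1 takes the replicate number as a block, which sets each induced array against the uninduced array of the same number. In bulk RNA, fewer cells of a type and less RNA per cell cannot be told apart. Of 12 markers of palatal mesenchyme, 11 were above background on all 8 arrays and Pax9 on none, and their summed normalized intensity was 38060 to 40570 in induced cells and 38140 to 43030 in uninduced cells. That sum was higher in induced cells in 1 of 4 pairs. Of 8 epithelial markers, Krt8 and Krt18 were above background on all arrays, and Krt5, Epcam, Trp63 and Grhl2 on none. C1qb and C1qc of 8 macrophage markers with a probe were above background on all arrays. So were Tubb3, Elavl4 and Stmn2 of 5 neuronal and glial markers with a probe. Of 6 skeletal muscle markers, Acta1 was above background on all arrays and 4 on none.

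No TGF-beta or BMP gene was called after 60 min of ephrin-B1 in any of the 3 limma fits. Without a block, 0 of the 43 had an adjusted p under 0.05, against 0.0319% of all genes, and 2 (Id2 and Smurf1) had an unadjusted p under 0.05, which is 4.65% against 1.28% of all genes. With the slide block, 0 were called against 0.128% of all genes, and the same 2 genes had an unadjusted p under 0.05, against 4.64% of all genes. With the replicate block, 0 were called against 0.532% of all genes, and 4 (Id2, Smurf1, Smad3 and Tgfbr3) had an unadjusted p under 0.05, which is 9.3% against 8.41% of all genes. Over the 63 probes on their own, 0 were called in each fit, against 0.0182% of all probes without a block, 0.0848% in the slide fit and 0.327% in the replicate fit. Of the 43 genes, 20 had a higher and 23 a lower mean in induced cells. The median difference was -0.02, close to the -0.0014 over all genes.

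**Figure D1:**
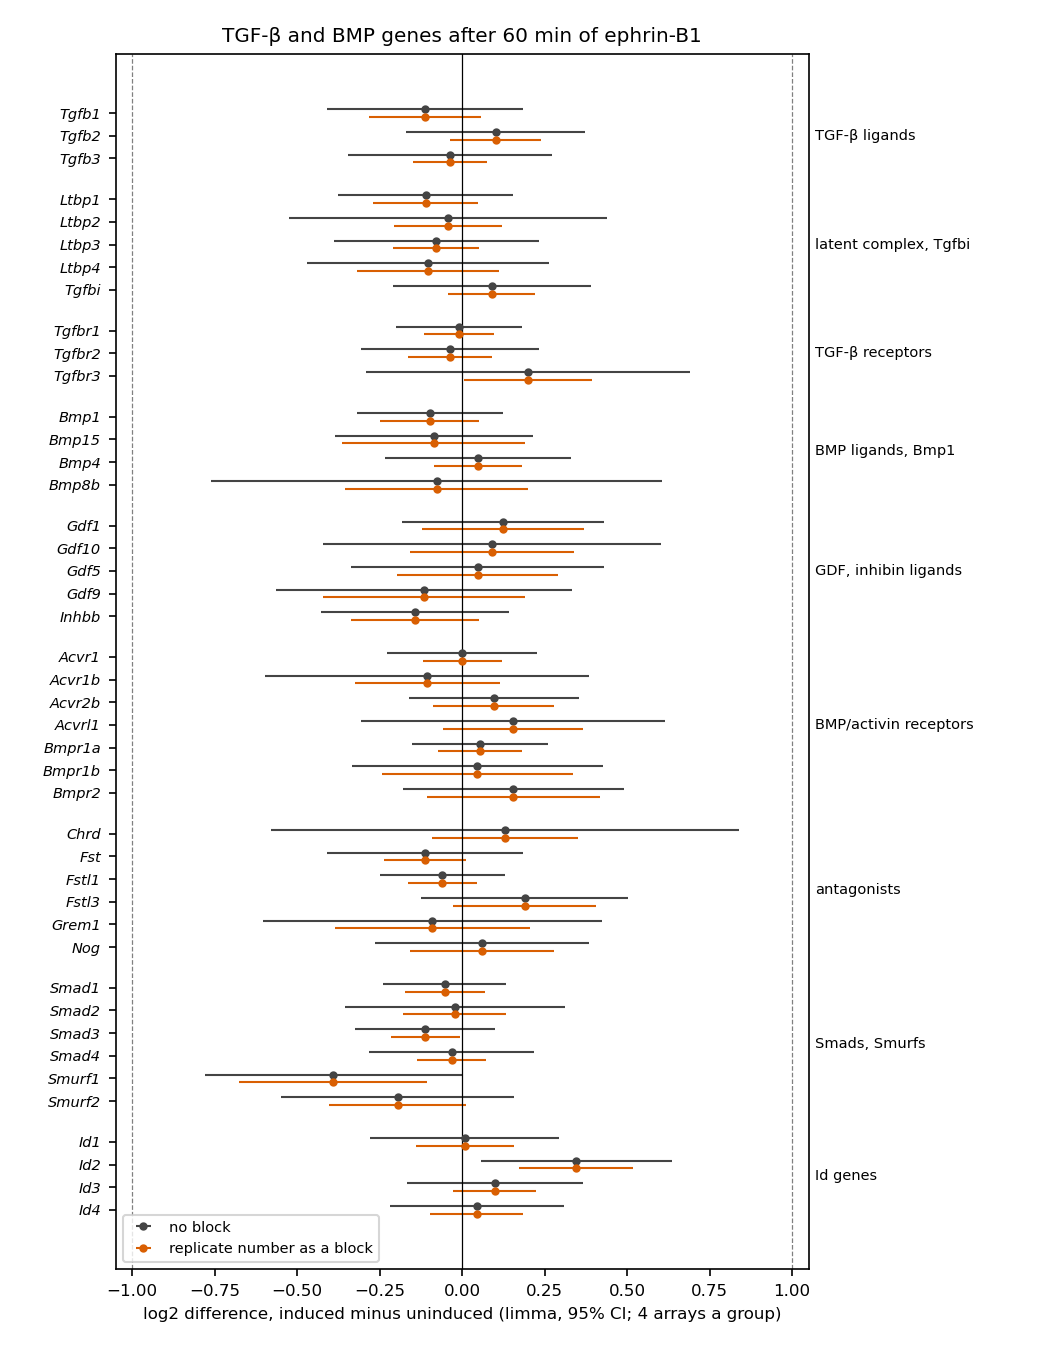
Log2 difference, induced minus uninduced, of the 43 tested genes by role, with 95% confidence intervals from limma without a block (grey) and with the replicate number as a block (orange); dashed lines mark a 2-fold change in either direction. Every interval of both fits lies between those lines, and Id2 and Smurf1 lie farthest from 0.

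The intervals of single genes show how precise each difference was. They are not adjusted over genes, are no limit of detection and leave out the 21 members not tested. The 95% interval without a block lay within 2-fold in either direction for all 43 genes, within 1.5-fold for 34 and within 1.2-fold for 5. Over all genes these shares were 99.47%, 89.45% and 18.56%. With the replicate block, 42 of the 43 lay within 1.5-fold, which is 97.67% against 98.58% of all genes. Within 1.2-fold lay 20, which is 46.51% against 56.89%.

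Id2, Entrez 15902, showed the smallest p of the 43 genes and was the 1 gene whose induced arrays all lay above the uninduced ones. Its normalized log2 intensity was 9.12, 9.09, 9.49 and 9.66 in induced replicates 1 to 4, against 8.95, 8.96, 9.08 and 8.99 in uninduced replicates 1 to 4. The 2 induced arrays of slide 3 stood highest and the uninduced arrays lay close together. The means were 9.34 ± 0.28 in induced cells and 8.99 ± 0.06 in uninduced cells (SD, n = 4 each), a difference of 0.35 with an SE of 0.13, or 1.27-fold. The limma adjusted p was 0.9998 without a block, 0.519 blocked by slide and 0.104 blocked by replicate number, so the difference was not called. All 4 pairs were higher, by 0.18, 0.13, 0.41 and 0.67. Slide 3 alone gave 0.54, and slides 1 and 2 alone gave 0.15. A separation with all induced arrays on top was found in 1 of 43 pathway genes and in 0.479% of all genes, and the reverse separation in 0 of 43 and in 0.724%.

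A second Id2 probe gave 8.35, 8.21, 8.13 and 8.62 in induced replicates 1 to 4, against 7.85, 8.07, 7.97 and 8.16 in uninduced replicates. It was higher in all 4 pairs, with 1 induced array below the highest uninduced one, and its difference was 0.31. With the replicate block and adjustment over all probes, the adjusted p was 0.261 for this probe and 0.14 for the brighter one.

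Id1 had 10.91, 10.97, 11 and 10.76 in induced replicates 1 to 4, against 11.06, 11.18, 10.83 and 10.54 in uninduced replicates. Both induced arrays of slides 1 and 2 were below their partners and both of slide 3 above them, and the mean difference was 0.01. Its dimmer second probe gave a difference of 0.15 with an SE of 0.15. Id3 had 11.66, 11.62, 11.49 and 11.31 in induced cells, against 11.39, 11.73, 11.41 and 11.16 in uninduced cells, higher in 3 of 4 pairs. Id4 had 9.09, 9.26, 9.58 and 9.17 in induced cells, against 9.09, 9.18, 9.37 and 9.30 in uninduced cells. The groups overlapped for Id1, Id3 and Id4, and their replicate-block adjusted p-values were 0.992, 0.717 and 0.903. The 4 Id genes had positive mean differences of 0.01 to 0.35 under the normalization used and under no background correction, median scaling and the authors' processed matrix. With arrays left out these signs did not all hold: Id1 was lower in 7 of 23 alternatives (range -0.18 to 0.20) and Id4 in 3 (range -0.06 to 0.11), while Id2 and Id3 stayed higher in all 23. Of these alternatives, those that changed only the block, the variance trend or the detection filter gave the same differences, so their signs were fixed.

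**Figure D2:**
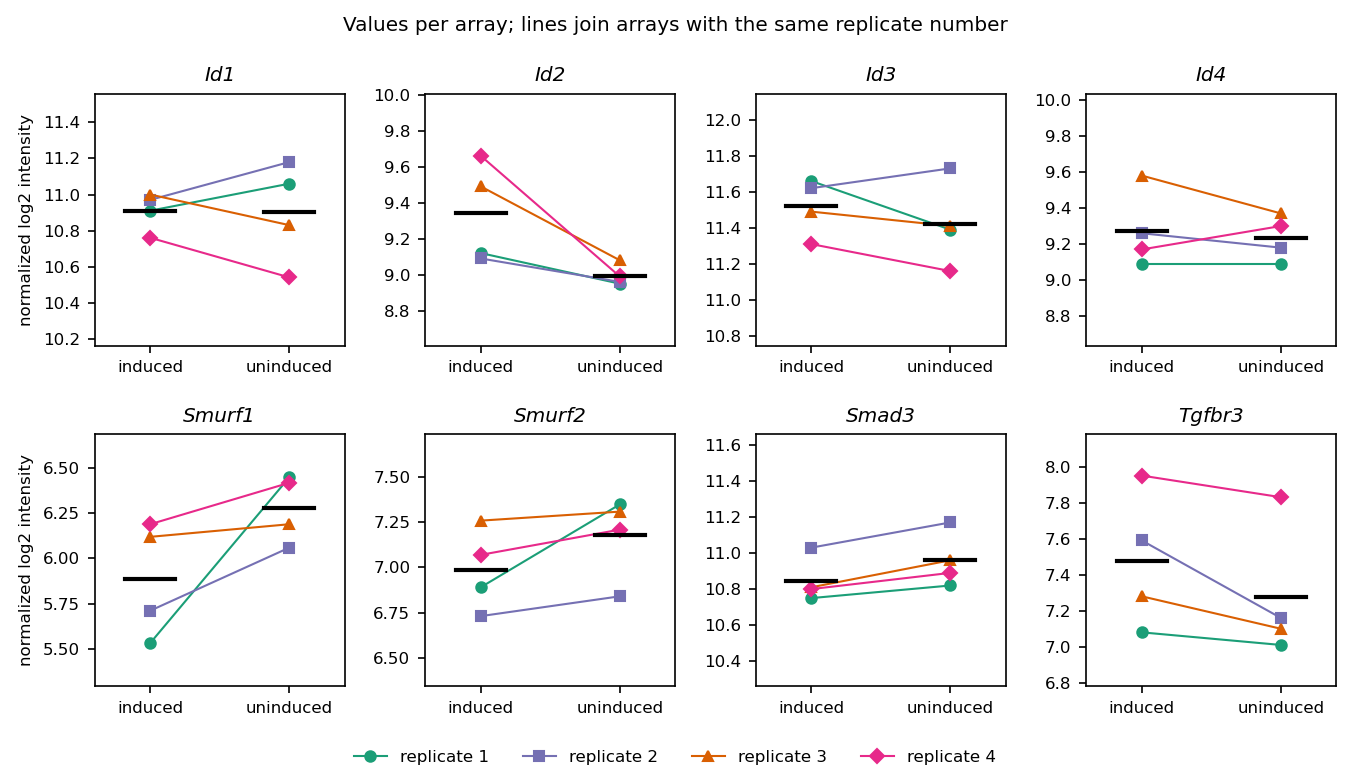
Normalized log2 intensity of Id1 to Id4, Smurf1, Smurf2, Smad3 and Tgfbr3 on each array, induced left and uninduced right; lines join arrays with the same replicate number and black bars are group means (n = 4 each). Id2 and Tgfbr3 slope down to the right in every pair, Smurf1, Smurf2 and Smad3 slope up in every pair, and the groups overlap for all but Id2.

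Of the signal carriers and their ubiquitin ligases, all 6 tested members had a lower mean, by 0.02 to 0.39, and none was called. The 6 signs were the same under no background correction, median scaling and the authors' processed matrix. With arrays left out they did not all hold. Smad4 was higher in 3 of 23 alternatives, each with 1 array left out, and ranged from -0.12 to 0.05. Smad2 was higher on slide 3 alone, by 0.02. Smad1 and Smad2 were not followed over all 23 alternatives. Smurf1, Entrez 75788, a ubiquitin ligase that marks BMP Smads and receptors for degradation, had 5.53, 5.71, 6.12 and 6.19 in induced replicates 1 to 4, against 6.45, 6.06, 6.19 and 6.42 in uninduced replicates. The induced arrays of slides 1 and 2 were the lowest, and the 2 highest induced arrays reached into the uninduced range. The means were 5.89 ± 0.32 in induced cells and 6.28 ± 0.19 in uninduced cells (SD, n = 4 each), a difference of -0.39 with an SE of 0.18. The limma adjusted p was 0.9998 without a block, 0.989 blocked by slide and 0.422 blocked by replicate number. This dim probe depended on the handling of background: the difference was -0.19 with no background correction and -0.50 in the authors' processed matrix. Slides 1 and 2 alone gave -0.63 and slide 3 alone -0.15.

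Smurf2, the related ligase that also targets TGF-beta receptors through Smad7, had 6.89, 6.73, 7.26 and 7.07 in induced cells, against 7.35, 6.84, 7.31 and 7.21 in uninduced cells. It was lower in all 4 pairs, by 0.19 on average, with a replicate-block adjusted p of 0.639. Smad3, a carrier of the TGF-beta branch, had 10.75, 11.03, 10.81 and 10.80 in induced cells, against 10.82, 11.17, 10.96 and 10.89 in uninduced cells. The groups overlapped and the pairs were all lower, by 0.06 to 0.16, with a replicate-block adjusted p of 0.574. Smad4, the shared partner, had 11.83, 11.53, 11.42 and 11.46 in induced cells, against 11.82, 11.64, 11.48 and 11.42 in uninduced cells, with 2 pairs in each direction. Smad1, of the BMP branch, and Smad2, of the TGF-beta branch, had differences of -0.05 and -0.02. Smad7, the inhibitory Smad that both pathways induce, was above background on no array. Smad6 was not analysed here.

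Across the 43 genes, 6 were higher in all 4 pairs, which is 14% against 7.57% of all genes, and 4 were lower in all 4 pairs, which is 9.3% against 8.41%. The 6 were Id2, Tgfbr3, Acvr2b, Acvrl1, Chrd and Fstl3, and the 4 were Smurf1, Smurf2, Smad3 and Fst.

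The TGF-beta ligands showed no called difference. Tgfb1 had 8.45, 8.38, 8.18 and 8.01 in induced cells, against 8.45, 8.35, 8.55 and 8.12 in uninduced cells, and the largest gap was in replicate 3. Tgfb2 had 9.95, 9.41, 9.57 and 9.57 in induced cells, against 9.63, 9.33, 9.54 and 9.58 in uninduced cells, so that its mean difference of 0.10 came mostly from replicate 1. Tgfb3 had 11.28, 11.28, 10.91 and 10.91 in induced cells, against 11.42, 11.27, 10.85 and 10.99 in uninduced cells. For Tgfb3 the arrays split by slide and not by induction, with slide 3 between 10.85 and 10.99 and the others between 11.27 and 11.42. The mean differences were -0.11 for Tgfb1 and -0.04 for Tgfb3.

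The latent TGF-beta binding proteins, which tether the inactive ligand to the matrix, had lower means in all 4 cases, by 0.04 to 0.11, and none was called. Ltbp1 was higher in 2 of 23 alternatives and Ltbp2 in 6, and Ltbp3 and Ltbp4 were not followed over them. Ltbp1 had 10.42, 10.48, 10.37 and 10.51 in induced cells, against 10.46, 10.32, 10.53 and 10.93 in uninduced cells, and uninduced replicate 4 stood above the other 7 arrays. Ltbp2 had 11.94, 11.91, 10.91 and 11.57 in induced cells, against 11.86, 11.64, 11.20 and 11.81 in uninduced cells. Its pairs were higher on slides 1 and 2 and lower on slide 3. Ltbp3 and Ltbp4 had differences of -0.08 and -0.10, and 1 of the 3 kept Ltbp3 probes, a dim one, had the opposite sign at 0.22. Tgfbi, a matrix protein named for its induction by TGF-beta, had a difference of 0.09, higher in 3 of 4 pairs.

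Among TGF-beta receptors, the kinases Tgfbr1 and Tgfbr2 showed narrower intervals than the co-receptor Tgfbr3. Tgfbr1, the type I kinase, had 11.18, 11.18, 10.94 and 11.23 in induced cells, against 11.19, 11.23, 11.01 and 11.14 in uninduced cells. Its difference of -0.01 had a 95% interval from -0.20 to 0.18 without a block and from -0.12 to 0.10 with the replicate block. Tgfbr2, the type II kinase, had 10.65, 10.90, 10.45 and 10.89 in induced cells, against 10.88, 10.76, 10.51 and 10.89 in uninduced cells, and its difference was -0.04. Tgfbr3, the co-receptor betaglycan, had 7.08, 7.59, 7.28 and 7.95 in induced cells, against 7.01, 7.16, 7.10 and 7.83 in uninduced cells. It was higher in every pair, by 0.06 to 0.44, while replicate 4 of both groups stood above all other arrays. The mean difference was 0.20 with an SE of 0.22 without a block and 0.09 with the replicate block, where the adjusted p was 0.582.

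Most BMP ligands had no probe above background in these cells. Of 11 genes in this group, Bmp2, Bmp3, Bmp5, Bmp6, Bmp7, Bmp8a and Bmp10 were above background on no array. Bmp7 had 2 probes and the others 1 each. A failed probe cannot be told from low RNA, here or for the other genes above background on no array. Tgfbr1 and Acvr1, for example, had 3 probes each, of which only 1 was kept. Bmp4 was above background on all 8 arrays, with 11.55, 11.94, 11.26 and 11.61 in induced cells, against 11.58, 11.63, 11.37 and 11.59 in uninduced cells. Its difference of 0.05 came from replicate 2, the highest of the 8 arrays, and the groups overlapped. Bmp1, a metalloprotease that trims procollagens and the antagonist chordin in spite of its name, had a difference of -0.10. Bmp8b and Bmp15 were above background on 4 and 5 arrays, and their differences were -0.08 and -0.09.

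Of 13 GDF and activin-inhibin ligands, 5 were tested and none was called. Inhbb, which encodes an activin and inhibin subunit, had 6.97, 7, 7.19 and 7.15 in induced cells, against 7.20, 6.98, 7.32 and 7.38 in uninduced cells. It was lower in 3 of 4 pairs, by 0.14 on average. Gdf1, a Nodal-related ligand, had 6.36, 6.49, 6.46 and 6.31 in induced cells, against 6.57, 6.31, 6.08 and 6.16 in uninduced cells, with a difference of 0.13. Gdf10 had a difference of 0.09, Gdf5 of 0.05 and Gdf9 of -0.12, and the probes of Gdf5 and Gdf9 were above background on 4 arrays each. Gdf2, Gdf3, Gdf6, Gdf7, Gdf11, Inhbc and Inhbe were above background on no array, and Inha on 1 induced array.

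Of the BMP and activin receptors, 7 of 10 were tested, and 6 of these 7 had a higher mean in induced cells, by 0.00095 to 0.16, with none called. Not all of these signs held: Acvr1 was lower in 7 of 23 alternatives (range -0.08 to 0.08), and Bmpr1b was -0.08 on slide 3. Bmpr1a and Bmpr2 stayed higher in all of theirs. Bmpr1a, a BMP type I receptor, had 9.26, 9.12, 9.08 and 9.08 in induced cells, against 9.23, 9.03, 9.08 and 8.99 in uninduced cells. Acvr1, a BMP and activin type I receptor, had 10.22, 10.02, 10.05 and 9.86 in induced cells, against 10.19, 9.89, 10.11 and 9.95 in uninduced cells. The groups overlapped for both genes, and Bmpr1a was higher in 3 of 4 pairs and Acvr1 in 2. Bmpr2, the BMP type II receptor, had 5.58, 5.46, 5.55 and 5.80 in induced cells, against 5.10, 5.58, 5.41 and 5.68 in uninduced cells, and 1 uninduced array was not above background. Acvr2b and Acvrl1 were higher in all 4 pairs, by 0.10 and 0.15 on average, with replicate-block adjusted p-values of 0.817 and 0.742. Acvrl1 is known as a receptor of endothelial cells. The summed normalized intensity of 6 endothelial markers was 211.7 to 248.2 in induced cells and 189.3 to 224.9 in uninduced cells, higher in all 4 pairs, while Pecam1, Cdh5, Tek and Tie1 were above background on no array and Kdr on all 8. The part of these cells in the Acvrl1 difference was not tested. Acvr1b had a difference of -0.11, and Acvr1c, Acvr2a and Bambi, a decoy receptor, were above background on no array.

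Of the 43 genes, Grem1 was the one whose difference was most opposed between slides. Grem1, Entrez 23892, encodes gremlin, a secreted BMP antagonist. It had 10.32, 9.61, 10.16 and 10.38 in induced replicates 1 to 4, against 10.89, 10.13, 10.03 and 9.78 in uninduced replicates 1 to 4. The induced arrays of slides 1 and 2 lay below their partners by 0.57 and 0.53, whereas those of slide 3 lay above theirs by 0.13 and 0.60. The mean difference of -0.09 over all arrays combined differences of opposite sign. With slides 1 and 2 alone and the replicate block, Grem1 was -0.55 with a limma adjusted p of 1.73e-07, the 1 call among the 43 genes under any alternative tried, from 2 arrays a group. That fit took the spread of Grem1 from 2 pair differences alone, so this p leans on the spread that limma pools over all probes. Its calls over all genes are given in the last section. Slide 3 alone gave 0.37 and was not called, but it was fitted without a block, so the 2 fits are unlike.

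A test of that contrast itself, added after these values were seen, compared the induced minus uninduced difference between slide 3 and slides 1 and 2 in 1 limma fit with the replicate block. For Grem1 the slides differed by 0.91, with a 95% interval from 0.63 to 1.2 and an adjusted p of 0.0489 over 9396 genes. Grem1 had the smallest p of all genes in this fit and was the 1 gene called, against 0.0106% of all genes. The call sat at the threshold. It was lost with no background correction (adjusted p 0.0865), without the detection filter (0.218), without the variance trend (0.86) and in the authors' matrix (0.215). It held with median scaling (0.000449) and with detection on all 8 arrays required (0.024). Leaving out a replicate left 1 pair on 1 side of the contrast, so only its size is given for those fits. The slide difference was 0.89 without replicate 1, 0.94 without replicate 2, 1.15 without replicate 3 and 0.68 without replicate 4. The size of the slide difference ran from 0.68 to 1.15 over these settings. Leaving out a replicate could not change its sign, since the pairs were negative on slides 1 and 2 and positive on slide 3. Changing the filter or the variance trend left it at 0.91. Ltbp2 and Id1 came next among the pathway genes, with slide differences of -0.44 and 0.38 and adjusted p-values of 0.488 and 0.654.

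Opposite directions on slides 1 and 2 and on slide 3 were found for 5 of the 43 genes, which is 11.6% against 13.3% of all genes. The 5 were Grem1, Id1, Ltbp2, Acvr1 and Tgfb1. A slide here also holds different replicates, so slide and replicate cannot be told apart.

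The other antagonists showed no called difference. Nog, which encodes the BMP antagonist noggin, had 6.55, 6.45, 6.92 and 6.52 in induced cells, against 6.34, 6.56, 6.76 and 6.53 in uninduced cells. Chrd, which encodes chordin, had 6.95, 7.14, 5.91 and 6.16 in induced cells, against 6.93, 6.83, 5.90 and 5.97 in uninduced cells. Chrd was higher in all 4 pairs, by 0.13 on average, while the mean of slide 3 was 5.98 and that of slides 1 and 2 was 6.96. Fst, which encodes the activin-binding protein follistatin, was lower in all 4 pairs, by 0.04 to 0.27, with a replicate-block adjusted p of 0.666. Fstl3, a follistatin relative that also binds activin, had 6.87, 6.78, 6.96 and 7.29 in induced cells, against 6.71, 6.65, 6.95 and 6.82 in uninduced cells, higher in all 4 pairs by 0.19 on average, with a replicate-block adjusted p of 0.68. Fstl1, a secreted glycoprotein of the same family, had 12.84, 12.96, 13.12 and 13.08 in induced cells, against 13, 12.92, 13.17 and 13.16 in uninduced cells. Its second probe had 9.08, 9.11, 10.02 and 10.20 in induced cells, against 9.11, 9.10, 10.09 and 9.81 in uninduced cells. The 2 Fstl1 probes disagreed in the sign of induction, at -0.06 and 0.08, and both stood higher on slide 3. Chrdl1 and Chrdl2 were above background on no array.

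**Figure D3:**
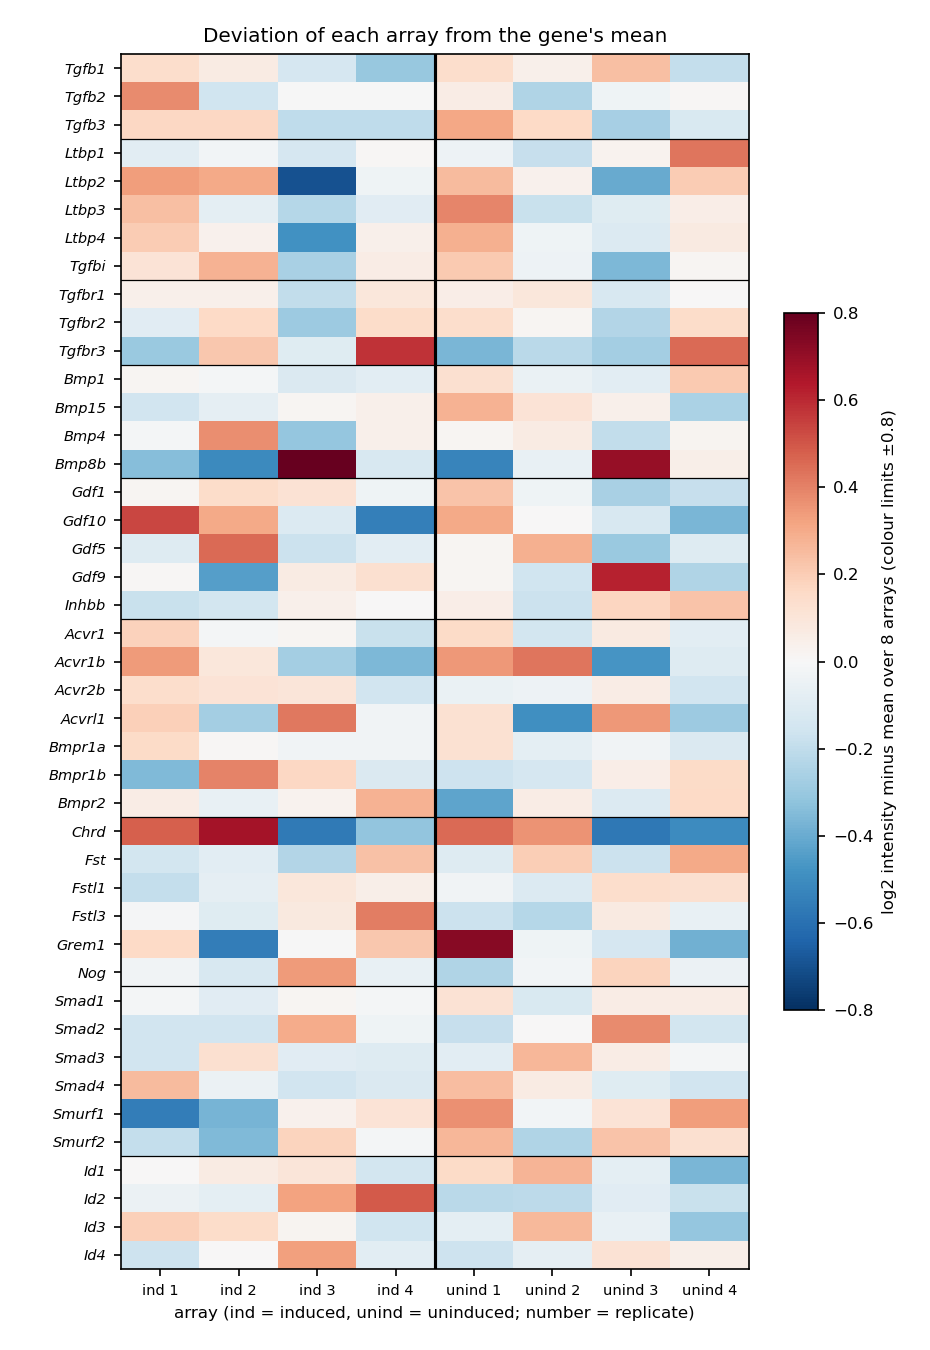
Deviation of each array from the mean of its gene over 8 arrays (log2 intensity, colour limits ±0.8) for the 43 tested genes grouped by role, induced arrays left of the line and uninduced arrays right of it. Arrays with the same replicate number share their colours across the line in many genes, for example Chrd, which is low on replicates 3 and 4 of both groups.

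Many of these genes shared their level within a replicate number. With the replicate block the SE of the difference was smaller in 43 of 43 genes and in 99.7% of all genes, with a median SE of 0.08 against 0.14 without a block. The range of the 4 replicate means had a median of 0.42 for the 43 genes and 0.35 for all genes. Acvr1b, Chrd, Gdf10, Smad4 and Tgfb3 had all 4 arrays of slide 3 below all others, which is 11.6% of the 43 genes against 16.4% of all genes. Fstl1 alone had all 4 arrays of slide 3 above all others, which is 2.33% against 11.5%. The widest ranges of replicate means were 1.2 for Bmp8b, a dim probe, and 1.08 for Chrd.

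Other genes of the pathway, taken from 3 lists that the symbol pattern does not cover, gave no call either. Of 85 listed genes 67 were tested, with 0 called in each of the 3 limma fits and the rates over all genes were those given above. An unadjusted p under 0.05 was found for 0 of the 67 without a block, against 1.28% of all genes. With the slide as a block it was found for 3, which is 4.48% against 4.64%, and with the replicate number as a block for 9, which is 13.4% against 8.41%. Of the 67, 30 had a higher and 37 a lower mean, with a median difference of -0.01. Among the transcriptional targets, with 24 of 28 tested, Hey1, a bHLH repressor that BMP and Notch signals induce, had 9.75, 9.77, 9.45 and 9.36 in induced cells, against 9.65, 9.41, 9.22 and 9.05 in uninduced cells. Hey1 was higher in all 4 pairs, by 0.25 on average, with a replicate-block adjusted p of 0.124. Junb, an AP-1 component, had a difference of -0.22, and Skil, a Smad co-repressor, of 0.17. Among the intracellular regulators, with 24 of 29 tested, Wwp1, a Smurf-related ubiquitin ligase, had a difference of 0.34 and Tgif1, a Smad co-repressor, of -0.15. Among the genes of activation and extracellular control, with 22 of 31 tested, Itgb6, an integrin subunit that activates latent TGF-beta, had a difference of -0.20. Over the 3 lists, 4 of the 67 genes were higher in all 4 pairs, which is 5.97% against 7.57% of all genes, and 5 were lower in all 4 pairs, which is 7.46% against 8.41%. The 4 were Hey1, Dcn (decorin, 0.15), Rgma (a BMP co-receptor, 0.20) and Tgfbrap1 (0.08). The 5 were Tnc (tenascin, -0.22), Fn1 (fibronectin, -0.22), Thbs1 (thrombospondin, an activator of latent TGF-beta, -0.22), Itgav (-0.09) and Nedd4l (-0.09), and of these Tnc had the lowest replicate-block adjusted p, 0.198.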

How the data were processed

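Induced and uninduced MEP cells were measured on 4 bead arrays each. Per the file headers, the authors deposited the mean bead intensity of each probe, linear and not normalized between arrays, and a detection p-value per probe. GenomeStudio 1.6.0 is named in the submitters' processing notes. The authors' processed matrix, deposited as background-subtracted intensity, was an alternative. The genome build and the annotation of the authors are not given in the sources used here.

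Signals were corrected and quantile normalized with neqc (limma 3.58.1, R 4.3.3, offset 16, the negative controls being inferred by neqc from detection). Lines of 11 repeated probe identifiers were averaged. Of 46632 probes, 29976 carry 1 gene, 10 several and 16646 none in the platform annotation, and 99.82% of Entrez identifiers matched the RefSeq table. A gene is represented by its brightest kept probe. The fit was lmFit and eBayes with a variance trend, and an adjusted p under 0.05 is a call. The limma fits, including the slide interaction, were tested on simulated arrays with known shifts. The simulated noise was independent between arrays, without the shared level of arrays with the same number. The other steps were not tested in this way. Depth cannot be counted on arrays, and their number limits the precision. After subtraction of group means, arrays of the same number correlated at 0.591 to 0.7164 across genes and other combinations at -0.538 to 0.3005, so the numbers pair the arrays, the limit being 0.1.

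Named were genes called in any fit, the 12 members with the smallest p, the brightest probe of each role, 18 members fixed by name and the 3 smallest p of each other list. Other pathway genes with 1 sign in all 4 pairs were named after their values were seen. The remaining members were named after their values were seen, to account for all 64, and the interaction with slide was added then. The members and lists were chosen with earlier results of these data known. Alternatives changed the block, background, scaling, filter, trend, probe rule, input values and arrays used.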

Additional observations from a re-analysis of the deposited data

Results flagged for a closer look

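In 86 groups of 4 values, 1 per gene and group, 2 arrays stood apart from the other 3 by Dixon's criterion at its 95% level, which chance exceeds in about 1 of 20 groups. Acvr2b had 7.18 in induced replicate 4, where the other induced arrays had 7.43 to 7.47. Gdf5 had 5.69 in induced replicate 2, where the other induced arrays had 5.06 to 5.15, and its probe was above background on 4 of the 8 arrays.

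For Grem1 the induced minus uninduced difference was 0.37 on slide 3 and -0.55 on slides 1 and 2, and the tested difference between these slides was 0.91 (limma adjusted p 0.0489). The pattern was noticed in these data and then tested on them.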

How the results depend on the processing

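None of the member genes or probes was called under the alternatives tried, with the exception of slides 1 and 2 alone with the replicate block, where Grem1 was the 1 member gene and the 1 member probe called (-0.55) and 2 of the 67 other pathway genes were called, Col3a1 (higher) and Junb (lower). Over all genes, 3 were called without a block, 12 with the slide block, 50 with the replicate block and 1 with median scaling. There was 1 call without the variance trend and 0 with detection on all 8 arrays. Slide 3 alone, without a block, gave 0 calls, and slides 1 and 2 alone, with the replicate block, gave 60 among 9396 genes. Leaving out 1 array gave 1 or 2 calls, and leaving out pairs 1 to 4 with the replicate block gave 33, 23, 38 and 27. The replicate block on all 8 arrays changed no call of a member.

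The median difference of the members, -0.02, was 0.0046 without the detection filter, 0.0112 without pair 1 with the replicate block, and -0.0233 to 0.0341 with 1 array left out, the highest without uninduced replicate 1 and 0.0083 without uninduced replicate 2. Of 27 named members, 11 had 1 sign under all alternatives (22 or 23 each), and Id2 ranged from 0.15 to 0.54 with a lowest adjusted p of 0.104. For a named member, changing only the block, variance trend or detection filter returned the same difference, so these counts overstate the checks of sign. Median scaling moved the median of all genes to 0.01. The slide difference of Grem1 was 0.86 with no background correction and 0.91 without the detection filter or the variance trend. It was 0.92 in the authors' matrix, and it was no longer called in any of these settings. Without pair 1 or 2 the slide difference was 0.89 or 0.94, and it was 0.68 to 1.15 in all. The cause was not tested. Dim probes limit the 5 members above background on 4 to 7 arrays.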
